A study of Arabidopsis thaliana with 4 samples.

Results

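The 146 mitochondrion-encoded genes were the rows of the deposited gene tables whose identifier begins with ATMG, out of 33602 rows in all, next to 133 chloroplast-encoded and 33323 nuclear rows. They were measured by RNA-seq in whole Arabidopsis thaliana seedlings 12 days old. The series concerns small open reading frames whose peptides occur in phloem and may act in flowering time. The overexpressor group carried sORF1511 as an overexpressed transgene and came from 1 line, number 7 in the design text, with 2 libraries; the promoter is not stated in the sources used here. The WT group was the accession Col-0 without the transgene, with 2 libraries. Each library came from a pool of 5 seedlings and 200 ng of RNA, in a stranded protocol with poly(A) enrichment, which the labels give for all 4 libraries. Whether that selection worked alike in WT replicate 1, which stood apart in its organelle reads, cannot be told from the labels and was not tested. With 1 line, what belongs to the transgene and what to the line cannot be told apart, and the sORF1511 transcript itself was not analysed here.

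Plant mitochondria keep a genome of their own, which encodes subunits of the respiratory chain complexes I, III, IV and V, proteins that mature cytochrome c, some ribosomal proteins, ribosomal RNAs and tRNAs, beside many open reading frames of unknown function. Phage-type RNA polymerases encoded in the nucleus transcribe it, and its transcripts are spliced, partly in trans, and edited by C-to-U changes. A poly(A) tail marks a plant mitochondrial transcript for decay instead of stabilising it, so a poly(A)-enriched library records what such transcripts left behind after that selection. In Col-0 a large piece of the mitochondrial genome is also present on nuclear chromosome 2. In whole seedlings, fewer cells of a type and less RNA per cell cannot be told apart.

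Of the 146 rows, 41 were placed in functional classes from a list of locus assignments: 14 rows of complex I, 1 of complex III, 3 of complex IV, 6 of complex V, 5 of cytochrome c maturation, 7 of ribosomal proteins, 1 of transport, 1 of a maturase and 3 of ribosomal RNA. Names were used for 34 of these 41, where the RefSeq annotation of assembly TAIR10.1 backed them, and the other 7 are called by identifier only. A note on a nuclear copy backed 17, an equal length held by no other row 14, and an equal length shared with other rows 3. A name by equal length is an inference and not an annotation of the locus. ATMG00020, the row with the most reads, is 1 of those 7; it was grouped with the ribosomal RNA rows on the strength of that list alone. A further 21 rows were of tRNA size, at most 120 bases, and 84 were other open reading frames. Some of these 84 carry RefSeq notes that liken them to known genes. Among them are ATMG00590 (cytochrome b/b6 protein), ATMG01090 (ATP synthase 9) and ATMG01280 (cytochrome c oxidase subunit II-like).

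The sequences that matter most for reading these values are those with a nuclear twin. A search of the 367808 bases of the RefSeq mitochondrial genome found 271245 of them, or 73.7%, in the nuclear genome at 95% identity or more. Of 36 coding and ribosomal RNA entries, 23 lay at least 80% inside such a copy, and 17 of those 23 had 0 differences from it; the largest number was 5. The coding sequence of rps12, a protein of the small mitochondrial ribosomal subunit, is 378 bases long and the same, base for base, at chrMT:288446-288823 (plus strand) and at chr2:3270410-3270787 (plus strand), so that a read inside it matches both. Its first 150 bases are shown, with the start codon in capitals.
rps12: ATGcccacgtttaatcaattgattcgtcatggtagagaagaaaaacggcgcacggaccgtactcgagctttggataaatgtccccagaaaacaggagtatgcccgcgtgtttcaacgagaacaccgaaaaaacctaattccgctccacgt
The 61 bases around the single difference in ccmFN1, a subunit of the cytochrome c maturation machinery, show an example of a near-identical copy. They lie at chrMT:316036-316096 and chr2:3297913-3297973, both on the plus strand. The capital marks C54T, counted from the first base of the coding sequence, mitochondrial base first. A mitochondrial transcript edited from C to U at this base would match the nuclear copy there. Whether this base is edited was not tested.
ccmFN1 mitochondrial: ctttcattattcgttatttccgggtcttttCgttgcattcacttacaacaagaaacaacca
ccmFN1 nuclear: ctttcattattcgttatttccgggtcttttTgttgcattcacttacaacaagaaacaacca
Coding or ribosomal RNA sequences with no base in a copy were those of atp4, ccmB, cox1 and rrn5. Matched sequence covered 3.8% of rrn18 and 9.9% of rps3 on chromosome 2, and 14.5% of nad9 on chromosome 3. The shortest class row was ATMG00665, whose 22 bases match in length the short trans-spliced exon of nad5, a complex I subunit, at chrMT:360107-360128 (plus strand), shown because it is shorter than any usual read and stood at 0 reads in every library.
nad5 short exon: gatatgatgattggtttaggta

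The libraries held 18547136 and 25740234 estimated reads in overexpressor replicates 1 and 2, and 13974460 and 24508631 in WT replicates 1 and 2. WT replicate 1 stood apart from the rest in its organelle reads: chloroplast ribosomal RNA rows took 1.08% and 0.956% of reads in the overexpressor libraries, against 28.1% and 1.29% in the WT libraries. The leaf marker RBCS1A, the small subunit of Rubisco, stood at 29900 and 28500 TPM in the overexpressor and 21300 and 25600 TPM in WT. The other leaf marker, LHCB1.1, stood at 7740 and 7810 TPM in the overexpressor and 6010 and 8650 TPM in WT. Both leaf markers were abundant in every library, and LHCB1.1 overlapped between genotypes. The root endodermis marker CASP1 stood at 0.807 and 1.45 TPM in the overexpressor and 5.67 and 13.3 TPM in WT. The root hair marker EXP7 stood at 0.0644 and 0.232 TPM in the overexpressor, against 0.277 and 3.58 TPM in WT. Both root markers were lower in both overexpressor libraries than in either WT library, and their part in the results given here was not tested.

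The mitochondrion-encoded rows held a small share of each library. It was 0.0277% (exact 95% interval 0.0269 to 0.0285) and 0.0236% (0.023 to 0.0242) in overexpressor replicates 1 and 2, and 0.947% (0.942 to 0.952) and 0.0506% (0.0497 to 0.0515) in WT replicates 1 and 2. Both overexpressor libraries lay below both WT libraries. The WT libraries differed from each other 18.7-fold, WT replicate 2 exceeded the overexpressor libraries 1.83-fold and 2.14-fold, and the overexpressor libraries differed 1.17-fold. Means were 0.0257% ± 0.00287 in the overexpressor and 0.499% ± 0.634 in WT (SD, n = 2 each), and an exact two-sided permutation test gave p = 0.333, the smallest that 2 libraries against 2 allow. The log2 ratio of the geometric means of the shares, overexpressor over WT, was -3.10, and without WT replicate 1 it was -0.98. Intervals cover counting error only.

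**Figure D1:**
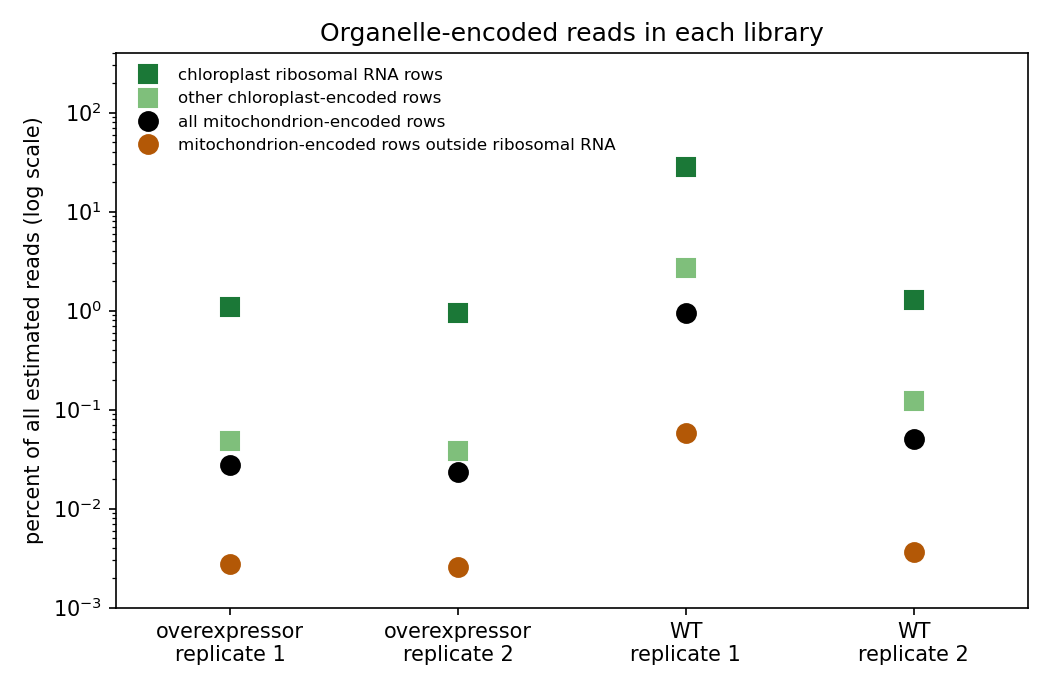
Percent of all estimated reads (log scale) on chloroplast and mitochondrion-encoded rows in each of the 4 libraries, 1 point a library. WT replicate 1 lies far above the others in every group of rows. The overexpressor libraries lie below WT replicate 2 in every group, chloroplast and mitochondrial. For all mitochondrion-encoded rows they lie at 0.0277% and 0.0236% against 0.0506%.

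Most of these reads were ribosomal RNA. The 3 ribosomal RNA rows took 89.9% and 89.1% of the mitochondrion-encoded reads in the overexpressor and 93.9% and 92.7% in WT, so both overexpressor libraries lay below both WT libraries by a mean difference of -3.82 percentage points (exact two-sided permutation p = 0.333, the smallest possible). ATMG00020 held 2514 and 3102 reads in the overexpressor, against 77295 and 6813 in WT. The row of rrn18, the RNA of the small ribosomal subunit, held 2091 and 2301 reads in the overexpressor, against 46826 and 4663 in WT. The row of rrn5, the 5S RNA of the large subunit, held 12 and 18 reads in the overexpressor, against 207 and 27 in WT. Once scaled to a common library size by TMM, ATMG00020, rrn18 and rrn5 lay lower in the overexpressor without overlap. The same held for 28.4% of all tested genes. Set against the chloroplast ribosomal RNA rows of the same library, the mitochondrial ribosomal RNA rows amounted to 2.31% and 2.2% in the overexpressor and 3.17% and 3.63% in WT. That ratio did not set WT replicate 1 apart from WT replicate 2, and its log2 difference was -0.59 (exact two-sided permutation p = 0.333).

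Outside ribosomal RNA the depth was low. The remaining 143 rows shared 518 and 660 reads in the overexpressor, and 8017 and 900 in WT, or 0.00279% and 0.00257% of all reads against 0.0574% and 0.00367%. Reads fell on 55 and 59 of the 146 rows in the overexpressor libraries and on 78 and 56 in the WT libraries. A total of 34 rows had reads in every library, 12 in WT replicate 1 only, and 52 stood at 0 in all 4. Among the 52 were 17 of the 21 rows of tRNA size, 31 other open reading frames and 4 class rows, namely cob, rps4, ccmC and the short nad5 exon. A row at 0 can hold up to 3 reads, which is between 0.108 and 0.268 CPM (reads scaled to a common library size by TMM), so absence was not shown.

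Class shares of the reads outside ribosomal RNA differed in both directions. Complex I, the NADH dehydrogenase, took 7.65% and 7.14% in the overexpressor and 27.0% and 14.5% in WT. That class was lower in both overexpressor libraries than in either WT library, by a mean of -13.3 percentage points (exact two-sided permutation p = 0.333), while the WT libraries differed from each other with an SD of 8.85 points. Complex IV, cytochrome c oxidase, took 7.27% and 5.66% in the overexpressor and 14.1% and 7.31% in WT. Complex V, the ATP synthase, took 25.1% and 25.2% in the overexpressor and 26.9% and 26.2% in WT, the narrowest range of the larger classes. Ribosomal proteins took 8.1% and 30.7% in the overexpressor and 17.5% and 26.5% in WT, so these groups overlapped. Other open reading frames took 47.3% and 27.0% in the overexpressor and 9.76% and 22.9% in WT, higher in both overexpressor libraries.

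The reads of 53 rows' RefSeq-named nuclear copies were then added to their mitochondrial rows, a step chosen after the data were seen. These named copies held 443 and 298 reads in the overexpressor and 3835 and 530 in WT. All 130 chromosome 2 rows in matched sequence held 1629 and 1492 in the overexpressor and 7424 and 1790 in WT. Nad4, nad6 and nad7 lay wholly in matched sequence but had no named copy, so the step covers only part of the copy reads. Within that limit, the order of these classes was kept for complexes I, IV and V and for the open reading frames. With the named copies added, complex I took 5.58% and 4.92% in the overexpressor and 19.1% and 9.91% in WT. Complex V took 24.0% and 24.4% in the overexpressor and 32.9% and 29.3% in WT. Complex III, the cytochrome bc1 complex, entered only through the nuclear copies of cob, with 1.25% and 2.19% in the overexpressor and 5.02% and 2.73% in WT. Ribosomal proteins took 22.6% and 26.5% in the overexpressor and 16.5% and 24.2% in WT, which still overlapped.

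**Figure D2:**
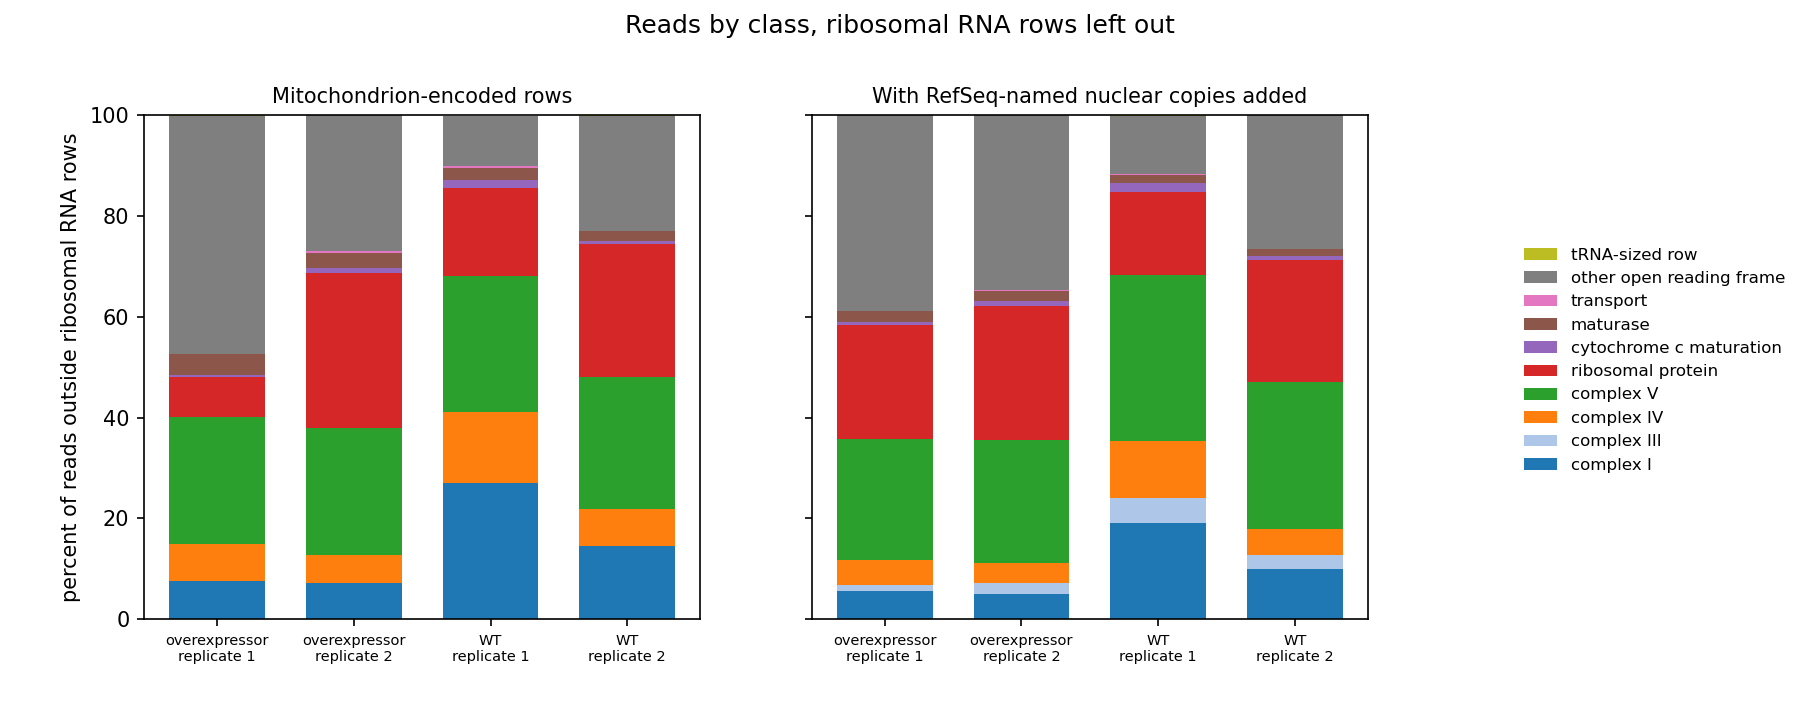
Stacked bars of the percent of reads in each class among reads outside ribosomal RNA rows, for the 4 libraries, on mitochondrion-encoded rows (left) and with RefSeq-named nuclear copies added (right). Complex I takes the least in the 2 overexpressor libraries, 7.65% and 7.14% against 27.0% and 14.5% in WT, and the ribosomal protein share of overexpressor replicate 1 goes to 22.6% with the copies added.

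The tables divided reads between matching rows differently from library to library. The rps12 row held 0 and 141 reads in the overexpressor and 379 and 118 in WT, whereas its nuclear copy AT2G07675 held 95 and 0 reads in the overexpressor and 0 and 0 in WT. The 2 rows together held 95 and 141 reads in the overexpressor, against 379 and 118 in WT with no library at 0. ATMG00590, an open reading frame outside the functional classes, held 37 and 0 reads in the overexpressor and 34.3 and 0 in WT. Its copy AT2G07718 held 0 and 45 in the overexpressor and 0 and 41 in WT. Their sums of 37 and 45 in the overexpressor and 34.3 and 41 in WT were close to level in raw reads. Scaled for depth, ATMG00590 stood at 1.925 CPM in overexpressor replicate 1 and 3.04 CPM in WT replicate 1, where its copy held 0 reads. Base differences between ATMG00590 and its copy were not counted. The row of atp8, a complex V subunit, held 0 and 14 reads in the overexpressor and 101 and 0 in WT, and its copy held 18 and 0 in the overexpressor and 93.7 and 25 in WT. For atp8, too, single rows switched between 0 and nearly all reads within a genotype.

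Other rows were credited to 1 side throughout. Cob, the apocytochrome b of complex III, stood at 0 reads in every library on its mitochondrial row, while its nuclear copy AT2G07727 held 12 and 21 reads in the overexpressor and 595 and 39 in WT. The row of rps4, a small-subunit ribosomal protein, stood at 0 in every library, and its copy AT2G07734 held 13 and 5 reads in the overexpressor and 171 and 12 in WT. In atp6, which encodes a membrane subunit of complex V, the mitochondrial row ATMG00410 had all the reads of its pair with AT2G07741. These were 14.2 and 12.7 in the overexpressor and 333 and 32.5 in WT. A further complex V row, ATMG01170, held 13.8 and 11.3 reads in the overexpressor and 189 and 20.5 in WT. Counts on ATMG00410 and ATMG01170 were fractional, while both rows together held a whole number of reads in every library. How reads were divided between these rows was not tested. Reads of atp1, the alpha subunit of complex V, were divided about evenly: 54.0 and 76.7 on the mitochondrial row in the overexpressor and 905 and 93.2 in WT, with 58.2 and 45.7 on AT2G07698 in the overexpressor and 883 and 102 in WT. These copies of cob, rps4, rps12, atp1 and atp8 have 0 differences in the coding sequence, and which copy the reads came from cannot be told apart from the tables.

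**Figure D3:**
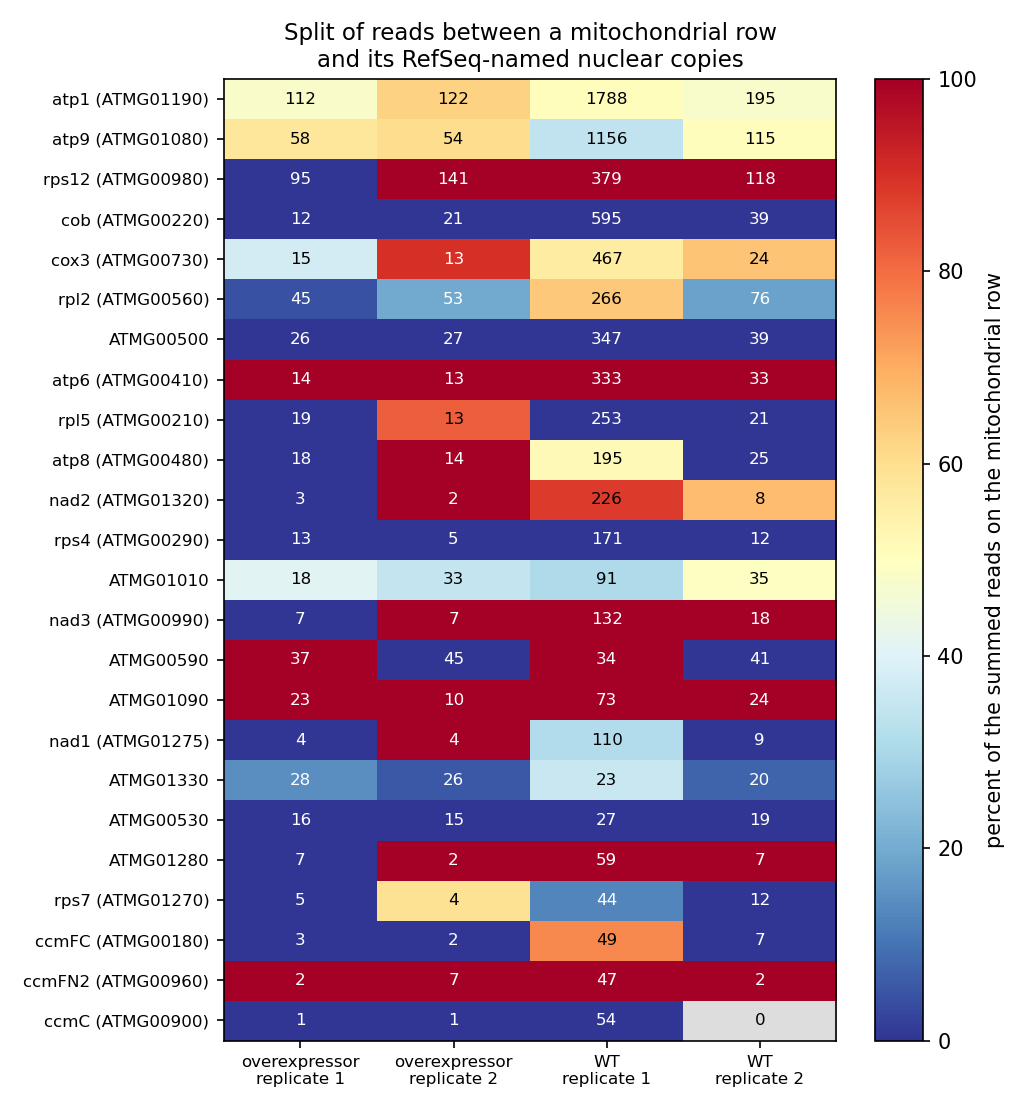
Colour gives the percent of a pair's reads that stood on the mitochondrial row, and the figure in each cell the reads of both rows together, for the 24 pairs with at least 50 reads in all, by library; grey marks a pair with 0 reads. rps12, ATMG00590 and atp8 go between 0% and 100% within a genotype, and cob stays at 0% in all 4 libraries.

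The chromosome 2 copy was also read as a whole. Its 130 rows with at least 80% of their length inside matched sequence held 1629 and 1492 reads in the overexpressor and 7424 and 1790 in WT, or 0.00878% and 0.0058% of all reads against 0.0531% and 0.0073%. The 4 with the most reads were AT2G07709, AT2G07717, AT2G07711, which RefSeq lists as transcribed pseudogenes, and AT2G07698. AT2G07709 held 569 and 532 reads in the overexpressor and 1196 and 585 in WT. AT2G07717 held 167 and 173 reads in the overexpressor, against 925 and 227 in WT, and AT2G07711 held 191 and 243 in the overexpressor, against 516 and 190 in WT. Of the reads on these 130 rows and the 143 mitochondrial rows together, the mitochondrial rows held 24.1% and 30.7% in the overexpressor and 51.9% and 33.5% in WT. Among the 26 rows of the copy that were tested, 0 passed an adjusted p of 0.05 with edgeR, where 0.149% of all 19474 tested genes did. At an unadjusted p under 0.05, 6 were lower, against 9.81% of all genes, and the median log2 fold change was -2.17.

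Overexpressor and WT were then compared row by row after TMM scaling over all tested rows. These are nearly all nuclear, and the scale is called the nuclear scale here. A total of 29 of the 146 rows had enough reads to be tested, and a row high in 1 genotype could pass through it alone, so the 29 do not stand for the whole set. With edgeR's quasi-likelihood test, 0 of the 29 passed an adjusted p of 0.05, where 0.149% of all 19474 tested genes did (0.0103% lower and 0.139% higher). At an unadjusted p under 0.05, 19 of the 29 were lower, against 9.81% of all genes, and 17 of the 29 had both overexpressor libraries below both WT libraries, against 28.4%. Of 68 chloroplast-encoded rows tested on this scale, 67 had a negative log2 fold change, with a median of -5.20. Every one of the 29 mitochondrion-encoded rows had a negative log2 fold change, with a median of -3.88 against -0.01 over all genes. Without WT replicate 1 the median was -0.58, 3 of 28 rows were lower at an unadjusted p under 0.05, and 1 row, ATMG00020, passed with an adjusted p of 0.0339 from edgeR; without that library 1.88% of all genes passed. Without WT replicate 2, 43 of 48 rows passed, where 11.2% of all genes did. DESeq2 gave an adjusted p to 53 rows and called 4 lower, where it called 5.88% of all genes in either direction, and limma-voom called 0 rows and 0 genes in all.

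The values of named rows show what WT replicate 1 contributes. The 22-base exon apart, the nad5 row with most of its coding sequence, ATMG00513, held 3.13 and 2.12 reads in the overexpressor and 232 and 12.3 in WT, with a log2 fold change of -6.48 ± 2.15 (SE; edgeR adjusted p = 0.186), and -1.94 without WT replicate 1. Of the 2010 coding bases of nad5, 1446 lay in the chromosome 2 copy with 1 difference, and ATMG00513 is 1446 bases long. No RefSeq-named copy was paired with ATMG00513, and how its reads were divided with the copy was not tested. The row of nad3, another complex I subunit, held 0 and 7 reads in the overexpressor and 132 and 18 in WT. Its copy AT2G07751 held 7 and 0 reads in the overexpressor and 0 and 0 in WT. The nad3 row had a log2 fold change of -5.30 ± 1.76. In cox1, the catalytic subunit of complex IV with no nuclear copy, there were 21 and 21 reads in the overexpressor and 569 and 37 in WT. The log2 fold change of cox1 was -4.79 ± 1.71 (edgeR adjusted p = 0.205), and -0.53 without WT replicate 1. Atp1 gave -3.88 ± 1.43, and -0.25 without that library. ATMG00020 gave -4.87 ± 1.51 (edgeR adjusted p = 0.175), and -1.003 without it; rrn18 gave -4.50 ± 1.44, and -0.80 without it. Nad3 gave -2.12 without it. These 6 rows, nad5, nad3, cox1, atp1, ATMG00020 and rrn18, kept a negative value without WT replicate 1.

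The least negative values belonged to open reading frames outside the functional classes. ATMG00660 held 67 and 53 reads in the overexpressor and 87 and 41 in WT, with a log2 fold change of -0.72 ± 0.80 (edgeR adjusted p = 0.63). ATMG00590, already seen to switch rows, gave -0.53 ± 2.10. Both were positive without WT replicate 1, at 0.86 for ATMG00660 and 7.49 for ATMG00590, the last a fitted value against 0 reads in WT replicate 2, which sets no bound.

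Scaled within the mitochondrion-encoded set, so that the 146 rows summed to the same total in each library, the comparison asks only about composition. On that scale 0 of the 29 rows passed with edgeR, where 0.349% of all genes did, and 7 had an unadjusted p under 0.05, against 21.8% of all genes, with 1 of the 7 lower. The log2 fold changes were negative in 10 rows and positive in 19, with a median of 0.57 and a range of -1.72 to 4.09. Of the 29, 3 rows lay lower and 12 higher without overlap, against 28.3% and 28.8% of all genes. With ribosomal RNA taken out of the total, the median was -0.12. At an unadjusted p under 0.05 with edgeR, 6 rows were then lower and 2 higher, in place of 1 lower and 6 higher. The median also fell below 0.57 with any single library left out, by the range given in the closing section. Limma-voom also called 0 rows, and without WT replicate 2 edgeR called 2 lower and 8 higher of 48 rows, where it called 11.2% of all genes.

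Among ribosomal RNA rows the rescaled log2 fold change was -0.18 ± 0.10 for ATMG00020 and 0.11 ± 0.10 for rrn18. Among the complexes, nad5 (ATMG00513) had the lowest value, -1.72 ± 0.55 (edgeR adjusted p = 0.177). It took 0.061% and 0.0349% of all mitochondrion-encoded reads in the overexpressor and 0.175% and 0.0992% in WT. Of the reads outside ribosomal RNA, it took 0.605% and 0.321% in the overexpressor and 2.89% and 1.37% in WT. The rescaled log2 fold change was -0.01 ± 0.25 for cox1 and 0.71 ± 0.15 for atp1 (edgeR adjusted p = 0.111 for atp1). Atp1 took 10.4% and 11.6% of the reads outside ribosomal RNA in the overexpressor and 11.3% and 10.3% in WT, so on that total the groups overlapped. The row of rps3, a small-subunit ribosomal protein mostly absent from the nuclear copy, took 4.05% and 3.94% in the overexpressor and 8.17% and 7.33% in WT. Its rescaled log2 fold change was -0.28 ± 0.15 (edgeR adjusted p = 0.47). The shares outside ribosomal RNA did not overlap, nor did the rescaled values, where 28.3% of all genes lay lower without overlap. ATMG00520, counted as the maturase, had 1.27 ± 0.25 (edgeR adjusted p = 0.108).

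The 6 open reading frames with the highest mean TPM over the 4 libraries were ATMG01000, ATMG00660, ATMG01130, ATMG01010, ATMG01090 and ATMG01200. WT replicate 1 sets part of that order: without it ATMG01130 averaged 1.17 TPM and ATMG01200 0.644 TPM, below the 1.46 TPM of ATMG00690 and the 1.18 TPM of ATMG00670. ATMG01000 stood at 5.58 and 5.75 TPM in the overexpressor and 55.9 and 5.22 TPM in WT. ATMG00660 stood at 12.8 and 7.31 TPM in the overexpressor and 24.1 and 6.16 TPM in WT. Outside WT replicate 1, both were as high in the overexpressor as in WT or higher. ATMG01130 stood at 0.671 and 0.725 TPM in the overexpressor and 24.3 and 2.11 TPM in WT, the opposite order. Of the 8 open reading frames tested, all had positive rescaled values: the highest were ATMG00590 with 4.09 ± 1.61, ATMG00660 with 2.70 ± 0.81 and ATMG00670 with 2.16 ± 0.70, and the lowest ATMG01200 with 0.65 ± 0.43, ATMG01090 with 1.51 ± 0.82 and ATMG01010 with 1.53 ± 1.05. ATMG01200 was at -0.03 with ribosomal RNA out of the total, and ATMG00590 at -6.25 without overexpressor replicate 1, a fitted value from 0 reads in the overexpressor library that remained.

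**Figure D4:**
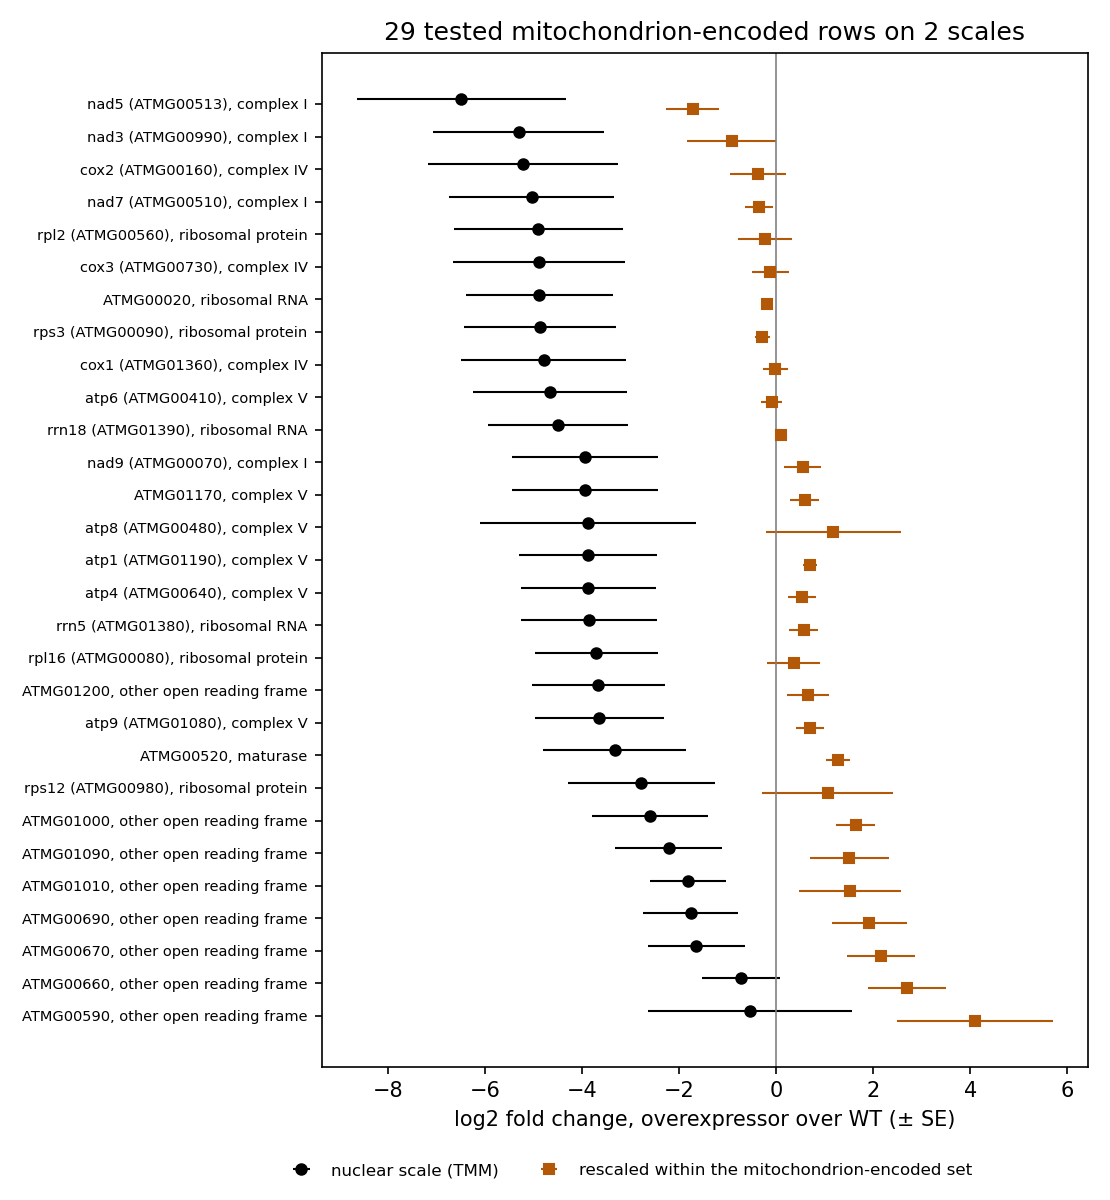
Fold changes (log2, overexpressor over WT, bars ± SE) of the 29 tested rows, on the nuclear scale (circles) and rescaled within the mitochondrion-encoded set (squares). All circles lie below 0 and between -6.48 and -0.53, while the squares run from -1.72 for nad5 to 4.09 for ATMG00590, 19 of them above 0.

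Nuclear genes that work with these products were described from 6 lists with 92 genes, of which 88 were tested and 0 passed with edgeR, where 0.149% of all genes did. DESeq2 called 9 higher and 1 lower, where it called 5.88% of all genes, and limma-voom 0. EdgeR called 1 higher without WT replicate 1, where 1.88% of all genes passed, and 5 higher and 3 lower without WT replicate 2, where 11.2% did. At an unadjusted p under 0.05 in the full comparison, 21 were higher and 5 lower, against 11.9% and 9.81% of all genes, and the median log2 fold change was 0.06 against -0.01 over all genes. The list of alternative respiration held 12 enzymes that bypass the proton-pumping complexes, namely alternative oxidases and alternative NAD(P)H dehydrogenases, and 4 genes of the mitochondrial stress response, UPOX, OM66 (BCS1 in RefSeq), ANAC013 and ANAC017. Of the 16, 12 were tested and 5 were higher at an unadjusted p under 0.05, where 11.9% of all genes were, with a median of 0.25. These were 3 of the 8 bypass enzymes tested, AOX1A, AOX1D and NDB2, and 2 of the 4 other genes, UPOX and OM66, which are named here after their values were seen. AOX1A, the main alternative oxidase, stood at 44.8 and 57.4 CPM in the overexpressor and 17.3 and 25.7 CPM in WT, a log2 fold change of 1.24 ± 0.23 (edgeR adjusted p = 0.101). AOX1D, a second alternative oxidase, had 134 reads over both overexpressor libraries and 1 read over both WT libraries, a ratio of 112 (exact 95% counting interval 19.7 to 4440; edgeR adjusted p = 0.0634). NDB2, an external NADH dehydrogenase, stood at 19.4 and 19.6 CPM in the overexpressor and 9.12 and 11.5 CPM in WT, 0.90 ± 0.15 (edgeR adjusted p = 0.0938). In these 3 genes, which had the smallest p-values of the list, both overexpressor libraries lay above both WT libraries, as in 28.7% of all genes.

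Among complexes II and III and cytochrome c, all 14 genes were tested, 5 higher and 1 lower at an unadjusted p under 0.05, against 11.9% and 9.81% of all genes. The succinate dehydrogenase subunits SDH1-1 and SDH2-1 had log2 fold changes of 1.05 ± 0.22 (edgeR adjusted p = 0.12) and 0.91 ± 0.15 (edgeR adjusted p = 0.0915), and CYTC-1, a cytochrome c, had 0.36 ± 0.08. Complex IV had 8 of 13 higher and 0 lower at an unadjusted p under 0.05, against the same 11.9% and 9.81%, with a median of 0.33. Its smallest p-values belonged to AT4G37830 with 0.36 ± 0.09, AT3G62400 with 0.33 ± 0.09 and AT1G80230 with 0.36 ± 0.09. Complex I had 2 of 12 higher at that threshold, near the 11.9% of all genes, and a median of 0.12, with the smallest p-values in AT5G11770 with 0.44 ± 0.11, AT1G16700 with 0.34 ± 0.12 and AT1G79010 with 0.18 ± 0.08. Complex V had 1 higher, AT1G51650 with 0.44 ± 0.10, and 1 lower, ATP3 with -0.46 ± 0.11, of 9, near the shares of all genes; AT5G08670 followed with -0.14 ± 0.09.

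The list of organelle gene expression had 24 of 28 values negative, against 51.5% of all genes, and a median of -0.22. At an unadjusted p under 0.05, 3 were lower and 0 higher, and 3 of 28 is near the 9.81% of all genes that were lower. Among the polymerases, RPOTm (AT1G68990, MGP3 in RefSeq), which transcribes most mitochondrial genes, stood at 33.5 and 28.5 CPM in the overexpressor and 34.4 and 33.8 CPM in WT, -0.14 ± 0.12. RPOTmp (AT5G15700), which also serves mitochondria, stood at 15.9 and 19.3 CPM in the overexpressor and 16.8 and 16.5 CPM in WT, 0.08 ± 0.14, with overlapping groups. MSH1, a DNA repair protein that limits recombination in organelle genomes, had -0.36 ± 0.15. The smallest p-values belonged to PMH1, a mitochondrial RNA helicase, with -0.41 ± 0.09 (edgeR adjusted p = 0.126), BIR6, a pentatricopeptide repeat protein, with -0.80 ± 0.24, and AT4G11690, another of that family in RefSeq, with -1.31 ± 0.44 from 0.312 and 0.474 CPM in the overexpressor and 0.894 and 1.08 CPM in WT.

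**Figure D5:**
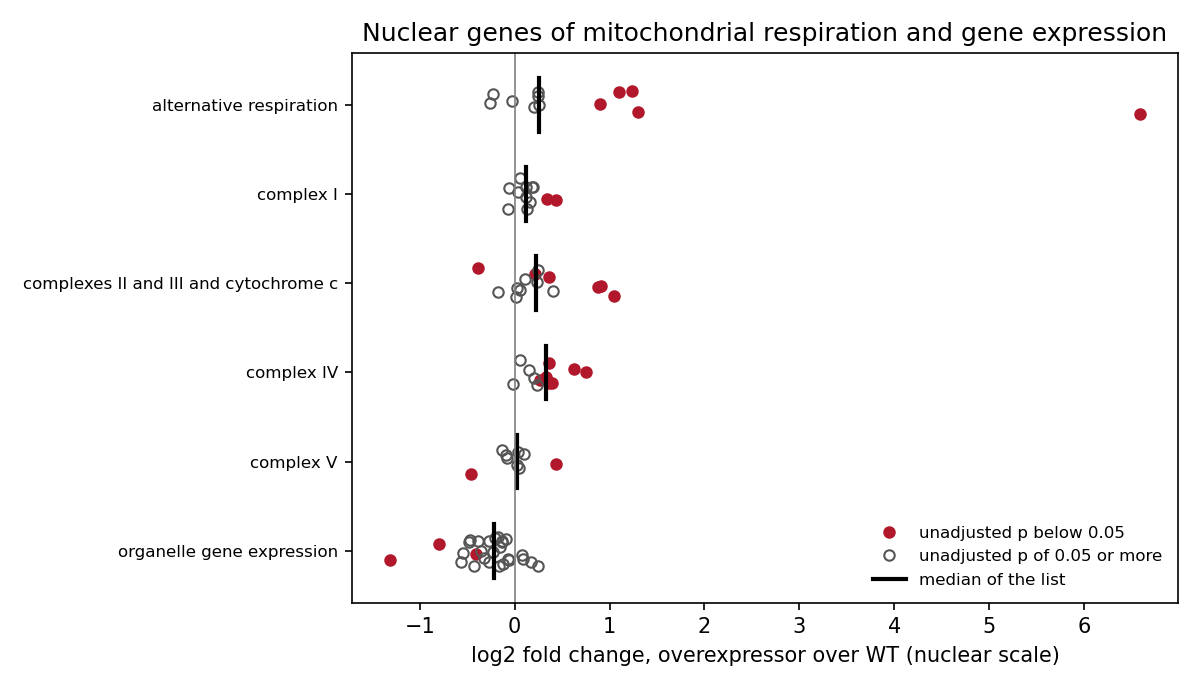
Fold changes (log2, overexpressor over WT) of the 88 tested nuclear genes, 1 point a gene, by list; filled points have an unadjusted p under 0.05 and bars mark list medians. Medians lie at 0.25 for alternative respiration, 0.33 for complex IV and -0.22 for organelle gene expression; 0 genes passed after adjustment.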

How the data were processed

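The authors deposited a gene-level table for each library with TPM, estimated counts and lengths, per the file headers. Not stated in the labels or headers are the quantifier, genome build, annotation and handling of near-identical copies; DESeq2 is named by the submitters' processing notes. The deposited TPM values were used for levels. The deposited estimated counts were rounded and tested with edgeR 4.0.16 in R 4.3.3 (filterByExpr by genotype with a minimum count of 10, TMM, quasi-likelihood test, Benjamini-Hochberg adjustment over 19474 genes). Printed SEs accompany edgeR's shrunken fold changes only approximately. Rescaling set each library's offset for the mitochondrion-encoded rows to their own total and left other rows on the TMM scale. Nuclear copies were found with blastn 2.17.0 in RefSeq assembly TAIR10.1, and pairs of rows follow RefSeq notes. Tests were run on simulated data whose replicates differed less in mitochondrion-encoded reads than the 18.7-fold between the WT libraries. That run cannot vouch for the tests under such a spread. Named open reading frames were the 6 highest by mean TPM and the 3 highest and 3 lowest rescaled values; named nuclear genes were AOX1A, RPOTm, RPOTmp, MSH1 and the 3 smallest p of each list. Members and lists were chosen with earlier results of these data known. Both libraries of a genotype are biological replicates per the labels. Alternatives are given in the closing section.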

Additional observations from a re-analysis of the deposited data

How the results depend on the processing

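With 2 libraries a genotype and 518 to 900 reads outside ribosomal RNA in 3 of the 4 libraries, depth limits the rows outside ribosomal RNA, and WT replicate 1 sets most values on the nuclear scale. Counts of mitochondrion-encoded rows called lower on that scale were 0 as reported, 22 with library size only (where the median of all genes was 0.104 instead of -0.01), 4 with DESeq2, and 0 to 43 when a library was left out, with medians of -5.19 to -0.58; a lone library is then taken to vary like the other genotype. They stayed at 0 with RLE, nuclear-only scaling, either filter, limma-voom and summed nuclear copies. Rescaled, leaving a library out gave 0 to 2 lower and 0 to 8 higher calls, the largest counts without WT replicate 2, and medians of 0.10 to 0.34. Rescaled medians were -0.12 without ribosomal RNA in the total and -0.20 with summed copies as well. The nuclear lists had 2 higher calls with library size only (4.15% of all genes passed), 2 without a filter (1.51%), 9 higher and 1 lower with DESeq2 (5.88%), and 0 to 5 higher and 0 to 3 lower with a library left out, AOX1D being the 1 without WT replicate 1.

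The replicate block gave 0 calls among the mitochondrion-encoded rows on both scales and 4 higher calls in the nuclear lists, where 1.91% of all genes passed; replicate deviations of the genotypes correlated at 0.0545, so the numbers do not pair libraries. The share's log2 ratio ran from -5.21 to -0.98 with a library left out and kept its direction under every denominator tried. The ribosomal RNA difference was -9.93 points in TPM and -4.42 to -3.22 with a library left out, and that of complex I -0.57 points of all mitochondrion-encoded reads and -19.6 to -7.06 with a library left out.

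Signs turned in these cases, and the cause was not tested. On the nuclear scale limma-voom gave 0.34 for ATMG00590 and 0.0074 for ATMG00660, and leaving out a library gave -7.96 to 7.49 and -1.54 to 0.86. Rescaled, cox1 gave 0.052 with the replicate block and -0.20 to 0.33 with a library left out, and ATMG00590 -6.25 to 7.79. Without ribosomal RNA in the total, ATMG01200 gave -0.031 and rrn18 -0.56; with the total of protein-coding genes of known function rrn18 gave -0.091. With copies summed as well, atp1 gave -0.24, ATMG01200 -0.12 and rrn18 -0.66. RPOTmp (AT5G15700) ranged from -0.060 to 0.23. Nuclear copies chosen by protein identity were not run.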
